A study of Mus musculus with 24 samples.

Results

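The genes of polyamine metabolism were followed in 3T9 cells, an immortalised mouse fibroblast line, as 10 listed genes found by symbol among the 21671 genes of the deposited RPKM table: Odc1, Amd1, Srm, Sms, Oaz1, Oaz2, Azin1, Sat1, Smox and Paox. RNA-seq covered 24 libraries in 8 groups of 3. The groups were cells infected with MycER in the HEA, the RA or the WT form, or with an empty vector (EV), each held in OHT for 8 h or for 4 h. In MycER the Myc protein, a transcription factor, is fused to a hormone-binding domain taken from the oestrogen receptor, and it becomes active when OHT (4-hydroxytamoxifen) is added. All groups, EV included, received OHT, and libraries without OHT were not used here. HEA and RA are mutant Myc proteins, known from the study and not from its labels to lack, in HEA, side chains that touch the bases of the E-box and, in RA, arginines that touch the DNA backbone. The vector's promoter and the number of separate infections were not given in the sources at hand. By its title, the series addresses how sequence-specific and non-specific DNA binding serve gene regulation by Myc.

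Putrescine, spermidine and spermine are small, positively charged molecules that bind nucleic acids and are needed for cell growth. Ornithine decarboxylase, encoded by Odc1, makes putrescine, and the S-adenosylmethionine decarboxylase encoded by Amd1 makes the aminopropyl donor with which the spermidine synthase Srm and the spermine synthase Sms extend it. Antizymes, encoded by Oaz1 and Oaz2, bind ornithine decarboxylase and send it to the proteasome, and the antizyme inhibitor Azin1 binds antizymes in its place. Sat1 acetylates spermidine and spermine, the oxidase Paox acts on the acetylated forms, and the oxidase Smox turns spermine back into spermidine. Odc1 is a classic direct target of Myc, and its best known E-boxes lie in the first intron.

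Esr1, the receptor gene that lends the constructs their hormone-binding part, had a mean of 10.2 to 11.9 RPKM in the 6 MycER groups, against 0.189 RPKM in EV at 8 h and 0.277 RPKM in EV at 4 h. Library totals recovered from the RPKM steps ran from 9.82 to 12.8 M reads. The 8 fibroblast markers summed to 638 to 811 RPKM per library. Of the other cell types checked, epithelial, endothelial and muscle markers each summed to at most 0.639 RPKM in any library, with Epcam and Myod1 at 0. Macrophage and leukocyte markers summed to 8.34 to 16.6 RPKM, led by Cd68 at a mean of 10.9 RPKM, and 2 of the 4 found averaged over 1 RPKM. Adipocyte markers summed to 1.59 to 6.29 RPKM, led by Fabp4. Replicate 3 of WT at 8 h, replicate 3 of WT at 4 h and replicate 2 of EV at 4 h lay farthest from their group means, at root mean square deviations of 0.244, 0.258 and 0.235 on the log2 scale. Calls in the 10 genes that change without these 3 libraries are given below.

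All 10 genes passed the filter on low values. Genes are compared in RPKM, which is per length. By the mean of 24 libraries Odc1 was highest at 90.9 RPKM, followed by Srm at 87.7, Amd1 at 80.2 and Azin1 at 66.9 RPKM. Oaz2, Oaz1, Sms and Sat1 lay between 36.9 and 47.7 RPKM. The oxidases were far lower, with Paox at 7.08 and Smox at 2.12 RPKM. Smox had 18 to 100 recovered reads per library, against 2092 to 2888 for Odc1. The ratio of the highest to the lowest group mean was 3.04 for Smox, 1.51 to 1.78 for Sat1, Srm, Amd1, Oaz2 and Sms, and 1.08 for Oaz1.

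**Figure D1:**
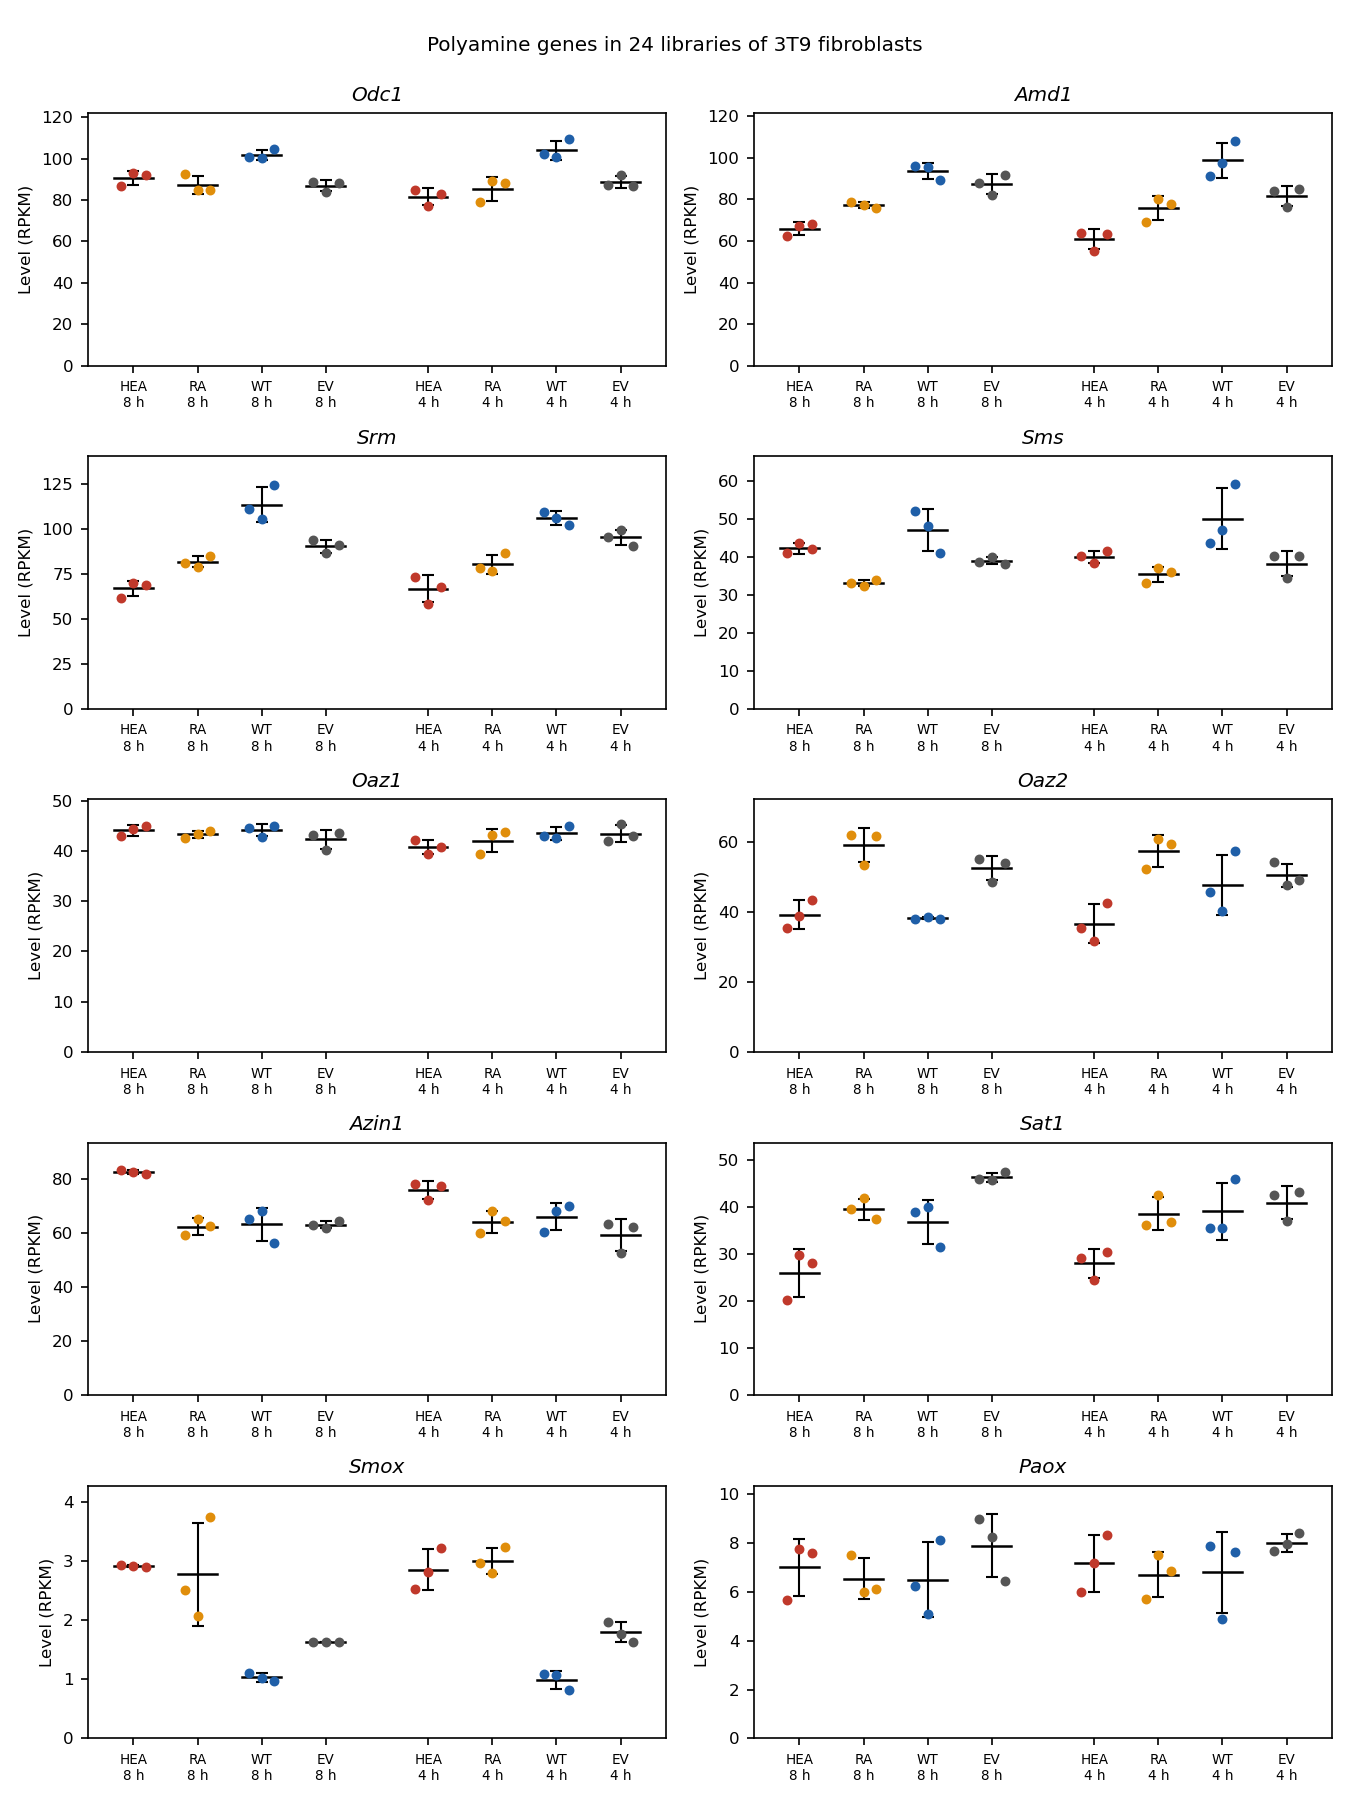
Level of each of the 10 polyamine genes in RPKM, from 0, in HEA, RA, WT and EV cells at 8 h (left of each panel) and 4 h (right) of OHT. Points are single libraries, horizontal bars are means and error bars are SD of 3 libraries. Srm reached 106 to 125 RPKM in the WT libraries at 8 h, against 86.7 to 94.0 RPKM in EV, while Smox was lowest in WT at both times.

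Changes are given below as log2 fold changes of RPKM + 0.5, each ± SE, with limma's adjusted p over 12268 genes. A gene is said to have risen or fallen where adjusted p was under 0.05. At 8 h, 6 of the 10 genes passed in HEA against EV, 1 in RA and 6 in WT. The shares of all tested genes that passed in the same comparisons were 47.7%, 2.78% and 35.2%. At 4 h the counts were 6, 1 and 4, against 43.2%, 5.31% and 26.1% of all tested genes. The median log2 change of the 10 genes at 8 h was -0.05 in HEA, -0.08 in RA and 0.03 in WT, against -0.05, 0.0048 and -0.02 over all tested genes. At 4 h it was -0.14 in HEA, -0.07 in RA and 0.08 in WT, against -0.06, 0.02 and -0.01 over all tested genes. The 3 comparisons at a time share their EV libraries. RPKM is relative to the library total, so a change in RNA content shared by all genes would not show in these values. In such bulk samples, fewer cells that express a gene and less of its RNA per cell cannot be told apart.

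In WT cells the genes of synthesis rose, though not all at both times. Odc1 rose at both times, Sms at both times, Srm at 8 h and Amd1 at 4 h, and none of these 4 fell in WT at either time. In HEA cells Srm and Amd1 fell at both times, and Odc1 and Sms did not pass. In RA cells none of the 4 passed against EV, although Sms did at 8 h without the 3 farthest libraries and Srm at 4 h without RA replicate 3.

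Odc1 had 101, 100 and 105 RPKM in WT libraries at 8 h, against 88.6, 83.8 and 88.4 RPKM in EV libraries. All WT libraries stood above all EV libraries, at 4 h as well, where WT had 102, 101 and 109 RPKM and EV had 87.3, 91.9 and 86.8 RPKM. The log2 fold change was 0.23 ± 0.054 at both times (adjusted p = 0.00258 at 8 h and 0.00388 at 4 h). HEA had 87.0, 93.1 and 92.3 RPKM at 8 h, which overlapped EV, and a log2 difference from EV of 0.06 (95% interval -0.05 to 0.18). HEA at 4 h had 84.9, 76.9 and 82.7 RPKM, below all EV libraries, and its log2 difference of -0.12 ± 0.054 did not pass (adjusted p = 0.0780) but did with the library total as a covariate (adjusted p = 0.0209). In RA the log2 difference from EV was 0.01 at 8 h and -0.05 at 4 h. Set against WT directly, Odc1 was lower in HEA, with log2 differences of -0.17 ± 0.054 at 8 h (adjusted p = 0.0152) and -0.35 ± 0.054 at 4 h (adjusted p = 2.39e-05). It was also lower in RA than in WT (-0.22 ± 0.054 at 8 h and -0.28 ± 0.054 at 4 h, adjusted p = 0.00255 and 0.000444). The HEA difference from WT at 8 h did not pass without WT replicate 3 (adjusted p = 0.0562) or without HEA replicate 1 (0.0769).

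Srm, the spermidine synthase, moved in opposite directions in HEA and WT at 8 h. It had 61.9, 70.3 and 68.7 RPKM in HEA, 111, 106 and 125 RPKM in WT, and 94.0, 86.7 and 91.0 RPKM in EV. No HEA library reached the lowest EV library, and no EV library reached the lowest WT library. The log2 fold change against EV was -0.43 ± 0.075 in HEA (adjusted p = 9.00e-05) and 0.33 ± 0.075 in WT (adjusted p = 0.00214). RA, at 81.2, 79.2 and 85.1 RPKM, lay below all EV libraries, and its log2 difference of -0.14 ± 0.075 did not pass (adjusted p = 0.326). At 4 h Srm had 73.5, 58.6 and 68.1 RPKM in HEA, 78.2, 76.7 and 86.6 RPKM in RA, 110, 106 and 102 RPKM in WT and 95.9, 99.6 and 90.7 RPKM in EV. HEA fell again (-0.52 ± 0.075, adjusted p = 1.56e-05). The WT value of 0.15 ± 0.075 did not pass at 4 h (adjusted p = 0.143), although all WT libraries were above all EV libraries, and the RA value of -0.25 ± 0.075 did not pass (adjusted p = 0.0638), except without RA replicate 3 (-0.30, adjusted p = 0.0428). HEA was also lower than RA (-0.29 ± 0.075 at 8 h and -0.27 ± 0.075 at 4 h, adjusted p = 0.00386 and 0.00570). The 4 h difference did not pass with voom (adjusted p = 0.0541) or without HEA replicate 2 (0.0533).

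Amd1, which makes the aminopropyl donor, had 62.2, 67.1 and 68.3 RPKM in HEA at 8 h, 78.7, 77.5 and 75.9 RPKM in RA, 95.9, 95.6 and 89.2 RPKM in WT and 87.8, 82.3 and 91.9 RPKM in EV. HEA was lowest, RA lay between HEA and EV, and WT overlapped EV. Against EV it fell in HEA, with log2 changes of -0.40 ± 0.071 at 8 h (adjusted p = 0.000108) and -0.43 ± 0.071 at 4 h (adjusted p = 7.25e-05). WT passed at 4 h only, with 91.2, 97.7 and 108 RPKM against 84.1, 76.3 and 85.2 RPKM in EV. That rise of 0.27 ± 0.071 (adjusted p = 0.00798) was 0.16 without the 3 farthest libraries and then did not pass (adjusted p = 0.163), nor did it pass without WT replicate 3 alone (0.0639). The WT value at 8 h was 0.10 ± 0.071 (adjusted p = 0.292), and the 8 h change minus the 4 h change was -0.17 ± 0.10 (adjusted p = 0.480). Much of the Amd1 transcript is shared with Amd2: 86.1% of its 50-base words occur there in the GENCODE transcripts. Reads of these copies may not be told apart, and the same holds for 42.2% of the words of Odc1, 28.9% of Paox and 28.7% of Sms, which occur in other genes. Reads reached 0.876 to 0.991 per base of gene for Amd1, Srm and Odc1, a range (0.8 to 3) in which reads rose with the library total within groups at a slope of 0.563 on the log2 scale. With the library total as a covariate, every passing change of these 3 genes against EV or between vectors still passed. That fit checks the calls only, and whether levels and fold changes of these 3 genes are understated in this range was not tested.

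Sms, the spermine synthase, was lowest in RA at 8 h, with 33.0, 32.2 and 33.9 RPKM, against 52.1, 48.0 and 41.1 RPKM in WT and 38.5, 39.9 and 38.2 RPKM in EV. HEA, at 40.9, 43.5 and 42.1 RPKM, overlapped WT. The WT libraries lay above those of EV but were spread widely. Sms rose in WT by 0.27 ± 0.093 at 8 h (adjusted p = 0.0315) and 0.38 ± 0.093 at 4 h (adjusted p = 0.00538). At 4 h the WT values were 43.7, 47.1 and 59.0 RPKM, and without the 3 farthest libraries the log2 change was 0.18 and did not pass (adjusted p = 0.0663). The 8 h rise did not pass without WT replicate 1 (adjusted p = 0.160), WT replicate 2 (0.0824), EV replicate 1 (0.0783) or EV replicate 3 (0.0874). The RA value against EV at 8 h, -0.23 ± 0.093, did not pass (adjusted p = 0.190) but did with only the groups compared (adjusted p = 0.0227) or without the 3 farthest libraries (0.0164). RA was lower than WT (-0.50 ± 0.093 at 8 h and -0.48 ± 0.093 at 4 h, adjusted p = 0.000233 and 0.000450). At 8 h HEA was above RA by 0.35 ± 0.093 (adjusted p = 0.00472), so Sms differed from Srm in which mutant was lower. At 4 h that difference of 0.17 ± 0.093 did not pass (adjusted p = 0.133) but did under 5 of 19 alternatives (adjusted p 0.0106 to 0.0368), among them the omission of the 3 farthest libraries. The ratio of Srm to Sms levels, computed after the values had been seen and given with no test, was 1.59 ± 0.063 in HEA, 2.48 ± 0.031 in RA, 2.46 ± 0.50 in WT and 2.33 ± 0.14 in EV at 8 h (SD, n = 3). At 4 h it was 1.67 ± 0.15 in HEA, 2.28 ± 0.18 in RA, 2.17 ± 0.40 in WT and 2.52 ± 0.34 in EV. The lowest WT library at 4 h, at 1.73, lay within the HEA range of 1.53 to 1.83.

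**Figure D2:**
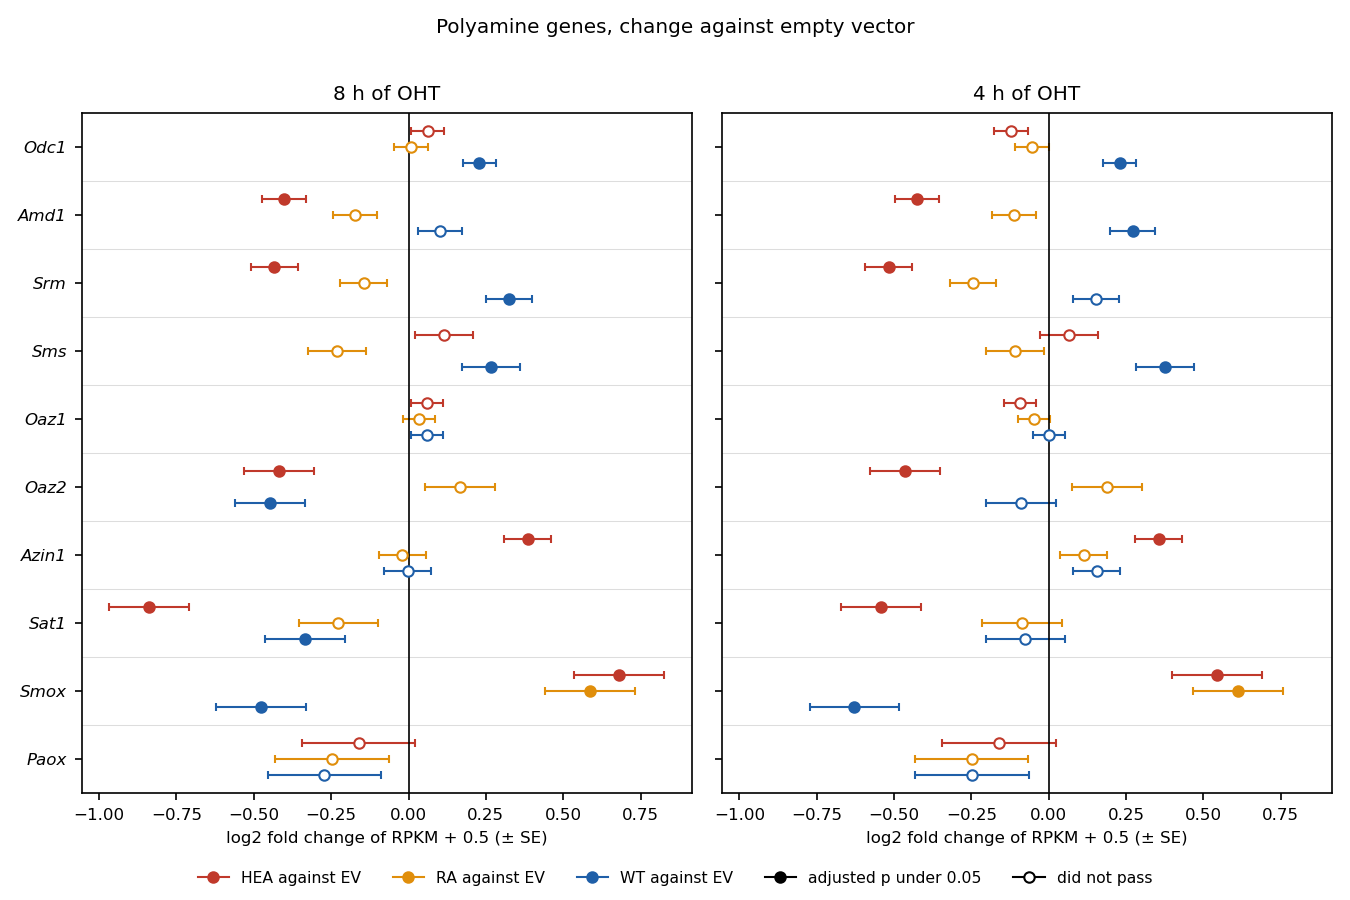
Log2 fold change ± SE of the 10 polyamine genes against EV at 8 h (left) and 4 h (right) of OHT, on the scale of log2(RPKM + 0.5). Filled points passed at adjusted p under 0.05 in limma and open points did not. In WT the synthesis genes lie right of 0 and Smox left of it, while in HEA Srm, Amd1, Oaz2 and Sat1 lie left of 0 and Azin1 and Smox right of it.

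To show what lies upstream of genes that moved together, promoter sequence was taken from RefSeq for mouse build GRCm38.p6, which is not the build of the deposited files. Windows of the 250 bases before a transcript start were given for 8 of the 10 genes, 10 windows in all, and not for Srm or Azin1. The canonical E-box CACGTG occurred in 1 of the 8 genes, Sms, and in 6.02% of 32851 such windows of mouse genes. The looser CANNTG, of which CACGTG is a case, occurred in 7 of the 8 genes, Odc1 being the exception, and in 66.2% of windows. A member was counted if any of its windows held the motif, while the shares are by window, so these are unlike measures. Sms and Paox each held CANNTG in only 1 of their windows. The variant CACGCG occurred in 7.62% of windows. A second variant, CACGAG, occurred in 5.37%, and both were added after a window had been seen. All motifs were searched on both strands. Odc1 held the first variant at 180 and 101 bases and the second at 147 bases before the start, counted to the first base of the motif. One Sms window held the canonical E-box at 196 bases and the other the first variant at 140 bases before its start. Oaz1 held the first variant and Sat1 the second. The Odc1 and Sms windows are shown because both genes rose in WT at both times, and that of Smox because it fell in WT and rose in HEA. Capitals mark the canonical E-box or a variant on either strand, and a match is a run of letters, not a shown binding site.
Odc1, chr12:17544623-17544872, plus strand: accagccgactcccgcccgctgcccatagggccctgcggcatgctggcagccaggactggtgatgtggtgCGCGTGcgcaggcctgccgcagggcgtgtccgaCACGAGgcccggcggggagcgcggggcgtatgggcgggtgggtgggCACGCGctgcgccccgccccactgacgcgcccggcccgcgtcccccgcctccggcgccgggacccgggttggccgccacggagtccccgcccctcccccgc
Sms, chrX:157492288-157492537, minus strand: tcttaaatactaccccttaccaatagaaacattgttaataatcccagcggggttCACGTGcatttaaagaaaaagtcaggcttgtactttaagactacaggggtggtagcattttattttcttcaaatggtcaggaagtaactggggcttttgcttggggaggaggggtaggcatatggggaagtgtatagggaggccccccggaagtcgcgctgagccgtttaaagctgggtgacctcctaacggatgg
Sms, chrX:157491369-157491618, minus strand: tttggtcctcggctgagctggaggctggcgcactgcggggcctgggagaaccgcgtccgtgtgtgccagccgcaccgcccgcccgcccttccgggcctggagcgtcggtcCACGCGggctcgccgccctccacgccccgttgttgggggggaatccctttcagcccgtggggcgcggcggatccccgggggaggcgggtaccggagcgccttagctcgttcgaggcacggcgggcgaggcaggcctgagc
Smox, chr2:131491612-131491861, plus strand: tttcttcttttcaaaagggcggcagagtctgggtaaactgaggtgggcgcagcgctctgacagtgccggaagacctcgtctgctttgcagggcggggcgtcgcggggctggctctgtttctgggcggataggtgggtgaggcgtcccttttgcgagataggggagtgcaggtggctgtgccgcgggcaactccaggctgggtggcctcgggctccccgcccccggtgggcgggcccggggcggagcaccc

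Of the genes that control ornithine decarboxylase protein, Azin1 and Oaz2 changed and Oaz1 did not pass in any comparison between groups. Oaz1 kept to 39.3 to 45.4 RPKM over all 24 libraries. Its log2 difference from EV at 8 h was 0.06 in HEA (95% interval -0.05 to 0.17), 0.04 in RA (-0.07 to 0.14) and 0.06 in WT (-0.05 to 0.17). The HEA value passed after quantile normalisation (0.12, adjusted p = 0.0347) and after removal of the trend on reads per base (0.13, adjusted p = 0.0203). Reads of Oaz1 and of the copy Oaz1-ps may not be told apart, as 52.2% of the 50-base words of Oaz1 occur there.

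Oaz2 was at 35.4, 38.8 and 43.6 RPKM in HEA at 8 h, at 62.1, 53.5 and 61.8 RPKM in RA, at 38.1, 38.7 and 38.1 RPKM in WT and at 55.1, 48.6 and 54.0 RPKM in EV. HEA and WT lay below all EV libraries, and RA overlapped EV. The log2 fold change against EV was -0.42 ± 0.11 in HEA (adjusted p = 0.00478) and -0.45 ± 0.11 in WT (adjusted p = 0.00422). HEA and WT differed from each other by 0.03 (95% interval -0.21 to 0.27), while RA was above WT by 0.62 ± 0.11 (adjusted p = 0.000201). At 4 h HEA again fell (-0.46 ± 0.11, adjusted p = 0.00255), with 35.6, 31.8 and 42.6 RPKM against 54.3, 47.8 and 49.2 RPKM in EV. WT at 4 h was spread over 45.7, 40.4 and 57.3 RPKM and did not pass (-0.09 ± 0.11, adjusted p = 0.597). The 8 h minus 4 h change in WT was -0.36 ± 0.16 (adjusted p = 0.412, unadjusted p = 0.0372). The 4 h difference of HEA from WT, -0.37 ± 0.11 (adjusted p = 0.0103), did not pass without WT replicate 3 (adjusted p = 0.0943) or HEA replicate 2 (0.0718). The HEA and WT libraries overlapped in that comparison.

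Azin1, which shields ornithine decarboxylase from antizyme, rose in HEA at both times and passed against EV in neither RA nor WT. It had 83.2, 82.5 and 81.6 RPKM in HEA at 8 h, 59.0, 65.2 and 62.3 RPKM in RA, 65.0, 67.9 and 56.3 RPKM in WT and 62.7, 61.8 and 64.5 RPKM in EV. Every HEA library stood above every other library of that time. The rise in HEA against EV was 0.38 ± 0.076 at 8 h (adjusted p = 0.000327) and 0.36 ± 0.076 at 4 h (adjusted p = 0.000811). WT differed from EV by -0.0031 at 8 h (95% interval -0.16 to 0.15). HEA exceeded WT by 0.39 ± 0.076 and RA by 0.40 ± 0.076 at 8 h (adjusted p = 0.000248 and 0.000211). At 4 h the excess over WT was 0.20 ± 0.076 (adjusted p = 0.0345), which 6 of the 19 alternatives ended, among them fits without WT replicate 1 (adjusted p = 0.167), HEA replicate 1 (0.103) or HEA replicate 3 (0.0844). Without WT replicate 1 the 4 h value of WT against EV also passed (0.22, adjusted p = 0.0494).

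Ratios of transcript levels set the enzyme and the inhibitor against the antizymes. They were chosen after the values had been seen and are a description with no test. Azin1 over the sum of Oaz1 and Oaz2 was 0.992 ± 0.071 in HEA, 0.608 ± 0.057 in RA, 0.765 ± 0.080 in WT and 0.665 ± 0.030 in EV at 8 h (SD, n = 3). HEA was highest at 4 h too, at 0.980 ± 0.047, against 0.643 ± 0.017 in RA, 0.726 ± 0.079 in WT and 0.631 ± 0.060 in EV. Odc1 over the same sum was 1.09 ± 0.042 in HEA, 0.854 ± 0.047 in RA, 1.24 ± 0.022 in WT and 0.917 ± 0.023 in EV at 8 h. At 4 h it was 1.06 ± 0.056 in HEA, 0.858 ± 0.0021 in RA, 1.14 ± 0.072 in WT and 0.944 ± 0.040 in EV. All HEA and all WT libraries exceeded all EV libraries of their time in the Odc1 ratio. Oaz2 made up 47.0% of the antizyme transcripts in HEA and 46.5% in WT at 8 h, against 57.6% in RA and 55.4% in EV. At 4 h the share was 47.2% in HEA, 52.0% in WT, 57.7% in RA and 53.7% in EV, and the WT libraries overlapped those of EV. These are levels of RNA, and antizyme protein also depends on a ribosomal frameshift that such data do not read.

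**Figure D3:**
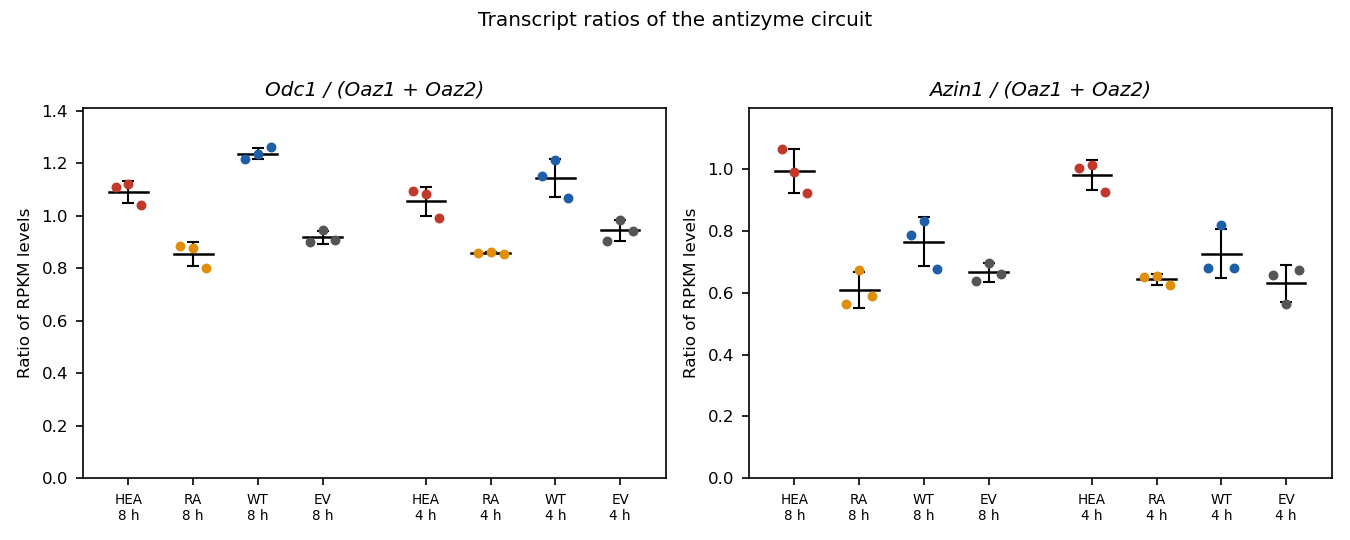
Ratio of RPKM levels in each library, from 0, for Odc1 (left) and Azin1 (right) over the sum of Oaz1 and Oaz2, in HEA, RA, WT and EV cells at 8 h and 4 h of OHT. Points are single libraries, bars are means and error bars are SD of 3 libraries. Azin1 ratios in HEA at 8 h run from 0.921 to 1.06, against 0.637 to 0.697 in EV.

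Among the genes of breakdown and interconversion, Smox divided the MycER forms most widely. Smox had 2.94, 2.92 and 2.89 RPKM in HEA at 8 h, 2.51, 2.07 and 3.74 RPKM in RA, 1.11, 1.02 and 0.964 RPKM in WT and 1.63, 1.63 and 1.63 RPKM in EV. At 4 h it had 2.52, 2.82 and 3.22 RPKM in HEA, 2.97, 2.80 and 3.24 RPKM in RA, 1.09, 1.06 and 0.810 RPKM in WT and 1.97, 1.77 and 1.64 RPKM in EV. At each time both mutants lay above EV and WT below it, with no overlap. Against EV the rise in HEA was 0.68 ± 0.15 at 8 h and 0.54 ± 0.15 at 4 h (adjusted p = 0.000699 and 0.00491). In WT Smox fell at both times (-0.48 ± 0.15 at 8 h and -0.63 ± 0.15 at 4 h, adjusted p = 0.0144 and 0.00324). In RA it was the only polyamine gene of the 10 to pass against EV, at 0.59 ± 0.15 and 0.61 ± 0.15 (adjusted p = 0.0343 and 0.0190). Each of these RA calls was lost under 8 alternatives: without RA replicate 3 the 8 h value was 0.38 (adjusted p = 0.148), and without EV replicate 2 the 4 h value was 0.61 (adjusted p = 0.0762). The other libraries whose omission ended the call were RA replicate 1 and all 3 of EV at 8 h, and RA replicates 1 and 3 and EV replicate 3 at 4 h. Set against WT directly, Smox was higher in HEA by 1.16 ± 0.15 at 8 h and 1.17 ± 0.15 at 4 h, and in RA by 1.06 ± 0.15 and 1.24 ± 0.15, with adjusted p at most 7.47e-06. These 4 differences kept their call under all 18 alternatives that could be run. HEA and RA differed by 0.09 at 8 h (95% interval -0.21 to 0.40) and -0.07 at 4 h (-0.37 to 0.24). No 50-base word of Smox occurs in another gene, and the offset of 0.5 RPKM understates fold changes at this level.

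Sat1, the acetyltransferase, was lowest in HEA, with 20.2, 29.7 and 28.1 RPKM at 8 h, against 39.4, 41.8 and 37.3 RPKM in RA, 38.8, 39.9 and 31.5 RPKM in WT and 45.8, 45.6 and 47.4 RPKM in EV. It fell in HEA against EV at 8 h (-0.84 ± 0.13, adjusted p = 2.38e-05) and at 4 h (-0.54 ± 0.13, adjusted p = 0.00205). The 4 h values were 29.1, 24.5 and 30.3 RPKM in HEA, 36.1, 42.6 and 36.8 RPKM in RA, 35.4, 35.6 and 46.0 RPKM in WT and 42.5, 36.9 and 43.2 RPKM in EV. All HEA libraries were below all libraries of the other 3 groups at each time. HEA was lower than RA (-0.61 ± 0.13 at 8 h and -0.46 ± 0.13 at 4 h, adjusted p = 0.000658 and 0.00679). It was lower than WT too (-0.50 ± 0.13 and -0.47 ± 0.13, adjusted p = 0.00292 and 0.00547). The WT value against EV at 8 h, -0.33 ± 0.13, passed narrowly (adjusted p = 0.0490) and did not pass under 12 of 19 alternatives. It was -0.23 without WT replicate 3 (adjusted p = 0.226), and it also failed without WT replicate 1 (0.0583) and without each EV library in turn (0.0844 to 0.121). RA against EV did not pass at either time (-0.23 and -0.09, adjusted p = 0.379 and 0.749), though it did at 8 h with only the groups compared (adjusted p = 0.0346).

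Paox, the oxidase of acetylated polyamines, did not pass in any comparison. It ran from 4.88 to 8.99 RPKM over all libraries, and its median coefficient of variation within groups, 16.4%, was the highest of the 10 genes. Its log2 difference from EV at 8 h was -0.16 in HEA (95% interval -0.54 to 0.22), -0.25 in RA (-0.63 to 0.14) and -0.27 in WT (-0.65 to 0.11).

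Compared directly with WT, the 10 genes differed in HEA for 6 genes at 8 h and 8 at 4 h, against 48.0% and 49.5% of all tested genes. In RA they differed for 6 and 5 genes, against 41.8% and 34.8% of all tested genes. Between HEA and RA 6 genes differed at 8 h and 5 at 4 h, against 44.9% and 46.3%. Both mutants were lower than WT in Odc1, Srm and Amd1 and higher in Smox at both times. Sms was lower in RA than in WT at both times. In HEA it was lower than in WT at 4 h (-0.31 ± 0.093, adjusted p = 0.00965) but not without WT replicate 3 (-0.18, adjusted p = 0.0929), and at 8 h the value of -0.15 ± 0.093 (adjusted p = 0.192) passed without WT replicate 3 (-0.24, adjusted p = 0.0417) and without the 3 farthest libraries (adjusted p = 0.00223). RA exceeded WT in Oaz2 at 8 h only, and the 4 h value of 0.28 ± 0.11 (adjusted p = 0.0634) passed without WT replicate 3 (0.42, adjusted p = 0.00737). Without the 3 farthest libraries that Oaz2 value passed too (adjusted p = 0.00779), while adjusted p was 0.0950 for Oaz2 in HEA against WT at 4 h, 0.153 for Sat1 in WT against EV at 8 h and 0.0562 for Smox in RA against EV at 4 h. The Amd1 difference between HEA and RA, -0.23 ± 0.071 at 8 h (adjusted p = 0.0122) and -0.31 ± 0.071 at 4 h (adjusted p = 0.00127), did not pass at 8 h with voom (adjusted p = 0.0559), with median centring (0.0513) or without HEA replicate 1 (0.0664).

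Between 8 h and 4 h of OHT none of the 10 genes passed in limma within HEA, RA, WT or EV, where 3.33%, 0.220%, 8.46% and 0.0245% of all tested genes did. The share of all tested genes at an unadjusted p under 0.05 was not counted, so member counts at that threshold have no background here. At that threshold there were 2 genes in HEA, 0 in RA, 1 in WT and 0 in EV. These were Odc1 (0.16 ± 0.054, adjusted p = 0.122) and Oaz1 (0.11 ± 0.052, adjusted p = 0.251) in HEA and Oaz2 (-0.30 ± 0.11, adjusted p = 0.103) in WT. The Odc1 value passed after quantile normalisation (adjusted p = 0.0311) and the Oaz2 value without WT replicate 2 at 4 h (-0.41, adjusted p = 0.0401). Nor did the change against EV differ between the times for any of the 10 in HEA, RA or WT, where 0.0163%, 0% and 0.0163% of all tested genes did, and 1, 0 and 1 of the 10 had an unadjusted p under 0.05.

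A list of 27 other genes of the pathway covered methionine and methylthioadenosine salvage, hypusine formation, ornithine supply and polyamine transport. Of these, 26 were in the table, 22 passed the filter and 16 passed the test in at least 1 comparison with EV, against 70.7% of all tested genes. In HEA 9 of 22 passed at 8 h, 2 higher and 7 lower, and at 4 h again 2 were higher and 7 lower, where 47.7% and 43.2% of all tested genes passed. In RA 1 rose at 8 h, and at 4 h 1 rose and 1 fell, beside 2.78% and 5.31% of all tested genes. In WT 7 rose and 3 fell at 8 h, and 6 rose and 1 fell at 4 h, beside 35.2% and 26.1%. Median log2 changes of the 22 genes at 8 h were -0.07 in HEA, -0.02 in RA and 0.12 in WT. Of these 38 calls, 15 did not pass when some single library was left out.

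The list holds 8 genes that use and recycle methionine. Set against WT at 8 h, Mat2a, Ahcy, Mri1, Enoph1 and Adi1 were lower in HEA, Mat2b was higher (0.41 ± 0.098, adjusted p = 0.00174), and Mtap and Apip did not pass. At 4 h 6 of the 8 were lower in HEA than in WT, and Mat2b and Apip did not pass. Of all tested genes, 48.0% passed in HEA against WT at 8 h and 49.5% at 4 h, in either direction. The share that was lower is not given here, so the counts of lower genes have no background. Mat2a, which makes S-adenosylmethionine, averaged 65.4 ± 0.92 RPKM in HEA, 104 ± 4.2 RPKM in WT and 86.9 ± 2.8 RPKM in EV at 8 h (SD, n = 3 each), and its log2 change against EV was -0.41 ± 0.051 in HEA and 0.26 ± 0.051 in WT (adjusted p = 1.94e-06 and 0.000517). RA averaged 76.5 ± 3.5 RPKM of Mat2a at 8 h and did not pass against EV (-0.18 ± 0.051, adjusted p = 0.0539). At 4 h Mat2a fell in RA, with 79.1 ± 4.4 RPKM against 91.9 ± 2.4 RPKM in EV (-0.22 ± 0.051, adjusted p = 0.0189). That call was lost without EV replicate 2 or 3 or RA replicate 1 or 2 (adjusted p from 0.0506). Mri1 and Enoph1 act in the methylthioadenosine salvage that follows spermidine and spermine synthesis. Mri1 averaged 5.31 ± 0.35 RPKM in HEA, 17.0 ± 0.74 RPKM in WT and 10.1 ± 0.90 RPKM in EV at 8 h, with log2 changes of -0.86 ± 0.12 and 0.73 ± 0.12 against EV (adjusted p = 6.51e-06 and 7.94e-05). Enoph1 changed by -0.51 ± 0.095 in HEA and 0.32 ± 0.095 in WT (adjusted p = 0.000176 and 0.0129). Both showed these directions at 4 h too, Mri1 with -0.77 and 0.59 and Enoph1 with -0.50 and 0.32, all passing. The rise of Enoph1 in WT did not pass without WT replicate 1 at 8 h (adjusted p = 0.0536), nor at 4 h without WT replicate 3 or EV replicate 2 or 3 (0.0537 to 0.133). Adi1, the next enzyme of that salvage, rose in WT by 0.76 ± 0.19 at 8 h (adjusted p = 0.00388). HEA against WT was -1.59 ± 0.12 for Mri1, -0.83 ± 0.095 for Enoph1 and -1.13 ± 0.19 for Adi1 at 8 h, with adjusted p at most 4.66e-05. In RA the 8 h values against EV were -0.02 for Mri1, -0.21 for Enoph1 and -0.51 for Adi1, and none passed. Ahcy, which clears S-adenosylhomocysteine, fell in HEA at both times (-0.24 ± 0.069 each), though not at 8 h without HEA replicate 1 (adjusted p = 0.0505).

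Dhps, which uses spermidine to make the hypusine of Eif5a, fell in HEA (-0.55 ± 0.085 at 8 h and -0.45 ± 0.085 at 4 h, adjusted p = 2.55e-05 and 0.000266). Eif5a itself rose in WT (0.22 ± 0.054 at 8 h and 0.17 ± 0.054 at 4 h, adjusted p = 0.00399 and 0.0286). The 4 h call of Eif5a was lost without EV replicate 1 or 3 or WT replicate 2 or 3 (adjusted p 0.0575 to 0.120). Azin2, a further antizyme inhibitor, averaged 1.93 ± 0.39 RPKM in HEA, 4.60 ± 0.56 RPKM in RA, 1.16 ± 0.26 RPKM in WT and 3.02 ± 0.51 RPKM in EV at 8 h. It fell in HEA (-0.54 ± 0.16) and in WT (-1.09 ± 0.16), with adjusted p of 0.0107 and 3.27e-05, while Azin1 rose in HEA. The fall of Azin2 in HEA at 8 h did not pass without EV replicate 3 or HEA replicate 2 (adjusted p 0.0679 and 0.0732). Atp13a2, a lysosomal polyamine exporter, averaged 13.2 ± 0.80 RPKM in HEA, 7.49 ± 0.77 RPKM in RA, 6.12 ± 0.82 RPKM in WT and 5.69 ± 0.093 RPKM in EV at 8 h. It rose in HEA by 1.15 ± 0.14 at 8 h and 1.19 ± 0.14 at 4 h (adjusted p = 1.21e-06 and 9.59e-07) and in no other comparison with EV. HEA exceeded WT in Atp13a2 by 1.06 ± 0.14 at 8 h (adjusted p = 2.23e-06). Slc7a1, a carrier of arginine and ornithine, rose in WT at 8 h by 0.52 ± 0.13 (adjusted p = 0.00389). Sat2, a relative of Sat1, rose in RA at 8 h by 0.71 ± 0.16 (adjusted p = 0.0205) and fell in HEA at both times (-0.41 ± 0.16 and -0.43 ± 0.16, adjusted p = 0.0399 and 0.0375). The RA call was lost without EV replicate 2 or 3 or RA replicate 1 or 2 (adjusted p 0.0543 to 0.147). The HEA calls of Sat2 were lost without EV replicate 1 or 2 or HEA replicate 1 or 2 of either time (0.0798 to 0.204). The rest of the 16 were Slc3a2, up in HEA and WT at 8 h, Mat2b, down in WT at 8 h, Slc18b1, down in WT at 8 h and up in HEA at 4 h, Mtap, up in WT at 4 h, and Apip, up in RA at 4 h. Leaving out 1 library ended the call of Apip for each of the 6 libraries compared (adjusted p 0.0571 to 0.194). It ended that of Slc3a2 in WT for WT replicate 3 and EV replicates 2 and 3 (0.0706 to 0.166). It ended that of Mtap for EV replicate 2 and WT replicate 3 (0.117 and 0.130). For Slc18b1 in HEA these were HEA replicates 2 and 3 and EV replicates 1 and 2 (0.0509 to 0.0851).

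**Figure D4:**
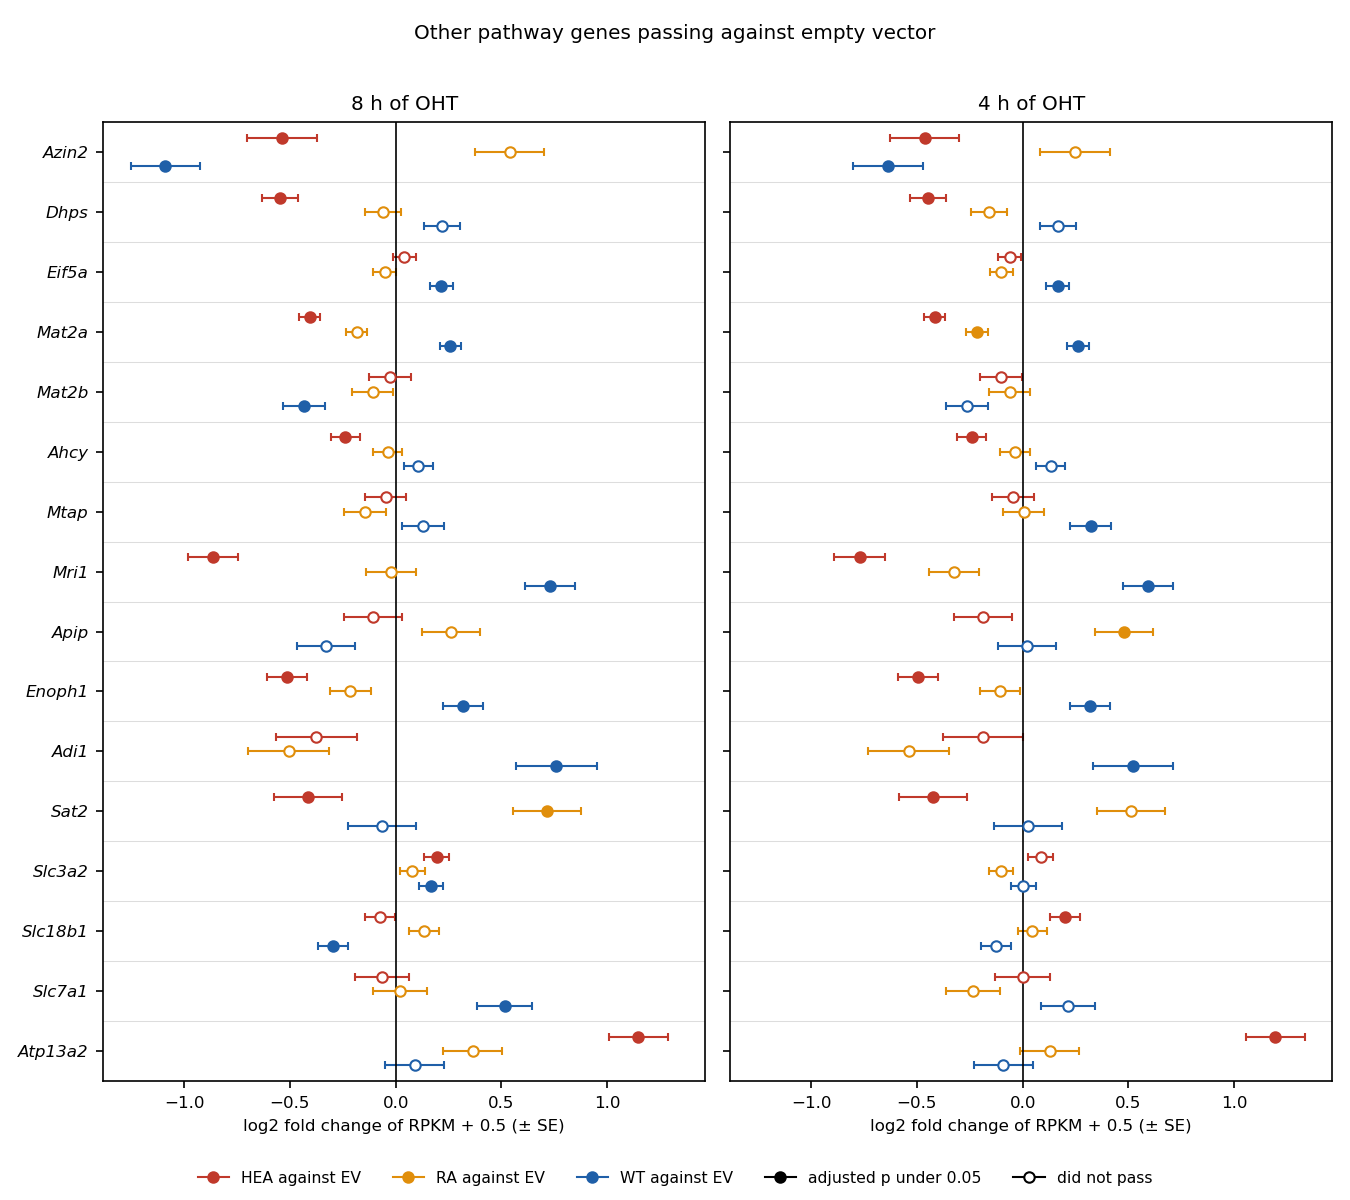
Log2 fold change ± SE against EV of the 16 other pathway genes that passed in at least 1 comparison with EV, at 8 h (left) and 4 h (right) of OHT, on the scale of log2(RPKM + 0.5). Filled points passed at adjusted p under 0.05 in limma and open points did not. Mat2a, Mri1 and Enoph1 lie left of 0 in HEA and right of it in WT at both times, and Atp13a2 lies farthest right in HEA.

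Genes whose 8 group means ran most like those of a member were found among 11163 genes by the root mean square difference of centred log2 values. For Odc1 these were Ldha, Hspd1 and Polr2e, each at 0.031, against a median of 0.24 over all genes compared. Srm was nearest to Zfp369 (0.036), Mrto4 (0.039) and Ssbp1 (0.044). The nearest to Oaz2 were Ech1 (0.050), Pea15a (0.051) and Acyp1 (0.054). Smox was nearest to Mapre3 (0.10), Mapk1ip1 (0.11) and Hcfc2 (0.14), against a median of 0.52. The distance is not scaled to a gene's own spread. That spread, the root mean square of the group means about their own mean, was 0.485 for Smox and 0.115 for Odc1. Mapre3 averaged 4.78 RPKM in HEA, 1.88 RPKM in WT and 2.77 RPKM in EV at 8 h, an order that Smox shares.

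The authors' deposited table of comparisons with EV holds all 10 genes in the same 6 comparisons. Of these 60 values, 24 passed here and 25 in the authors' deposited table at adjusted p under 0.05, with 21 passing in both in the same direction. Passing only in the authors' deposited table were Sms in HEA at 8 h (0.15, adjusted p = 0.0496) and Sms, Amd1 and Sat1 in RA at 8 h (-0.23, -0.18 and -0.22). The 3 that passed only here were all Smox, for which the authors' deposited table has -0.49 in WT at 8 h, 0.42 in RA at 4 h and -0.57 in WT at 4 h (adjusted p = 0.128, 0.106 and 0.0794). The direction was the same here for all 3.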

How the data were processed

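RNA-seq of 24 libraries was analysed, 3 for each of 8 groups set by vector and hours of OHT in the labels. Per the labels' protocols, libraries came from column-purified, DNase-treated total RNA and a stranded kit. Per the submitters' processing notes, the tools were featureCounts 1.4.5-p1, TopHat2 2.0.8, TopHat, DESeq2 and SAMtools, and the build was mm9. The sources used here do not give the annotation, the strand setting or how duplicate reads were handled.

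The authors deposited RPKM per gene and library, per the file headers. A second deposited table of comparisons with EV holds, per the file headers, log2 fold changes with errors, a test score, raw and adjusted p-values, and baseMean (normalised counts averaged over the libraries compared). It is quoted only where named.

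RPKM values are not counts, so limma-trend (limma 3.58.1 in R 4.3.3) was run on log2(RPKM + 0.5) for 12268 of 21671 genes with at least 1 RPKM in at least 3 libraries, as 8 group means over 24 libraries with 16 residual degrees of freedom. Benjamini-Hochberg adjustment was made within a comparison, with 0.05 as the threshold. The steps of low RPKM values gave whole reads: 99.98% of 362673 values were whole to within 0.01 read, and library totals were 9.82 to 12.8 M. A gene at 0 could hold 3 reads, 0.234 to 0.305 CPM, for counting error only. Reads of replicates differed by more than counting noise (chi-square per degree of freedom 1.43 to 17.8), so each was counted as 1 sample. Nothing in the labels says that replicates are separate cultures: the p-values then reflect only the spread among these samples, and that spread may be technical.

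On simulated data for WT against EV at 8 h, with 200 of 12054 genes changed, the test recovered 68% of the 1.5-fold and 94% of the 2-fold changes, with 3.57% of calls false. The simulation gave all genes the same spread and changed fewer genes than the 4324 that passed in the data. No change under 1.5-fold was simulated, so recovery of smaller ones, such as 1.17-fold for Odc1 in WT at 8 h, was not measured. Other steps used Python 3.11.15, numpy 2.4.6, pandas 2.3.3 and matplotlib 3.10.9. The genes named are all 10 members, the other listed pathway genes that passed against EV, the 3 genes with the most similar group means for Odc1, Srm, Smox and Oaz2, and Esr1 as a check. The members and the lists were chosen with earlier results of these data known. Same-numbered libraries did not deviate together, so no replicate block entered the main test.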

Additional observations from a re-analysis of the deposited data

Results flagged for a closer look

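Srm, Amd1 and Smox moved in opposite directions from EV in different MycER forms, each direction passing in limma, and the forms differed when compared directly. The share of all tested genes that met this rule was not counted, so these 3 genes have no background here. At 8 h, 47.7% of all tested genes passed in HEA against EV, 35.2% in WT against EV and 48.0% in HEA against WT. The log2 difference of HEA from WT in Srm at 8 h was -0.76 ± 0.075 (adjusted p = 5.31e-08), and all 3 HEA libraries lay below all 3 WT libraries. For Amd1 at 4 h the difference of HEA from WT was -0.70 ± 0.071 (adjusted p = 1.13e-07), again with all 3 HEA libraries lower, though the rise of Amd1 in WT against EV did not pass without WT replicate 3. Smox was higher in HEA than in WT by 1.16 ± 0.15 at 8 h (adjusted p = 1.31e-06) and 1.17 ± 0.15 at 4 h (adjusted p = 1.50e-06). It was higher in RA than in WT by 1.06 ± 0.15 at 8 h (adjusted p = 7.47e-06) and 1.24 ± 0.15 at 4 h (adjusted p = 2.26e-06). All 3 libraries of each mutant stood above all 3 WT libraries in these 4 comparisons of Smox. The rise of Smox in RA against EV did not pass without RA replicate 3 at 8 h (adjusted p = 0.148). At 4 h it did not pass without EV replicate 2 (0.0762), and other alternatives ended these calls too. In the authors' deposited table Smox did not pass in WT at 8 h (adjusted p = 0.128) or 4 h (0.0794). Nor did it pass there in RA at 4 h (0.106).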

How the results depend on the processing

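Of the log2 changes of single members under the alternatives, 3688 of 3771 stayed on their side of the threshold, 58 lost their call and 25 gained one. The sign turned in 203 of them, none of which passed in either fit. The 3771 values pool all 19 comparisons. Among these are the comparisons between times and of the change between times, in which no member passed in the main fit. A value that did not pass there had no call to lose. Counts of members that passed moved by over 1.5 times in 6 comparisons. RA against EV had 1 at 8 h, but 0 with a filter of 5 RPKM (which leaves Smox out), with quantile normalisation and after removal of the reads-per-base trend, and 2 with only the groups compared or without the 3 farthest libraries. At 4 h its 1 became 0 under these 5 settings. WT against EV at 4 h had 4, but 2 with only the groups compared or without the 3 farthest libraries. HEA against WT at 4 h had 8, but 5 with only the groups compared. HEA at 8 h against 4 h had 0, but 1 (Odc1) with quantile normalisation or after removal of the reads-per-base trend. Except for a shorter list of tested genes or fewer samples, the cause was not tested. Leaving out each replicate in turn gave 0 to 1 in RA against EV at either time, 4 to 5 in WT against EV at 8 h, 3 to 5 at 4 h, 6 to 8 in HEA against WT at 4 h, 5 to 6 in RA against WT at 4 h and 0 to 1 in WT at 8 h against 4 h (Oaz2, without WT replicate 2 at 4 h). The library total covariate, the removal of the reads-per-base trend and the omission of the 3 farthest libraries were chosen after seeing the data.

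Counts over all genes moved more. RA against EV had 341 genes at 8 h, but 1310 with only the groups compared, 544 with voom, 805 without the 3 farthest libraries and 59 to 189 without single replicates. At 4 h it had 652, but 158 to 557 without single replicates, 335 without the 3 farthest and 3 with only the groups compared. With only the groups compared, WT against EV at 4 h had 1112 in place of 3196 (2040 without WT replicate 3), HEA against WT 3945 in place of 6073 and RA against WT 2793 in place of 4272. Between times, HEA had 409 but 2 to 938, RA 27 but 0 to 87, WT 1038 but 0 to 1118, and EV 3 but 0 to 18. The differences in change between times had 2 in HEA but 0 to 6, and 2 in WT but 0 to 24. Other pathway genes passing in RA at 8 h were 1, but 7 with only the groups compared, 3 with voom or without the 3 farthest, and 0 without EV replicate 2 or 3 or RA replicate 1 or 2. In RA at 4 h they were 2, but 0 to 1, and in WT at 4 h 7, but 1 with only the groups compared.

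Replicate numbers did not pair the libraries: deviations of same-numbered libraries correlated at -0.60 to 0.41 (median 0.02, 48 pairs), and none of 16 comparisons had all its pairs above 0.1. With a replicate block, 5 members passed in WT against EV at 8 h in place of 6, 6 in RA against WT at 4 h in place of 5, and 17 genes in RA at 8 h against 4 h in place of 27. Depth limits Smox most, at 18 to 100 reads per library, and Paox at 92 to 194.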
